A study of Homo sapiens with 16 samples.

Results

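The stem and progenitor transcription factors examined here were ERG, FLI1, GATA2, LMO2, LYL1, TAL1, SPI1, GFI1, GFI1B and GATA1. These 10 genes were selected by symbol among the 60357 genes listed in each RNA-seq table, and all 10 were found. The tables came from Kasumi-1 and SKNO-1, established acute myeloid leukaemia lines that carry the t(8;21) fusion RUNX1/ETO, of which ETO is the product of RUNX1T1. Both arms of the study received lipid nanoparticles (LNPs) at 2 µg/ml for 24 h and were harvested on day 3. LNP/siRE-mod carried a modified siRNA against the fusion site and is labelled as RUNX1/ETO knockdown, whereas LNP/siMM-mod carried a mismatch control and is labelled as WT. SKNO-1 was grown with GM-CSF and Kasumi-1 without it, and each combination of line and siRNA had 3 libraries. Each line is 1 culture-adapted model, and nothing in the labels says that the 3 libraries of a group came from separate cultures, so p-values measure the spread between these libraries only.

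ERG, FLI1, GATA2, LMO2, LYL1 and TAL1, together with RUNX1, form a group of factors that bind many of the same regulatory elements in blood stem and progenitor cells. ERG, FLI1 and SPI1 belong to the ETS family, GATA2 and GATA1 are zinc finger proteins that recognise GATA sites, and TAL1 and LYL1 are basic helix-loop-helix proteins that LMO2 bridges to GATA factors. GFI1 and GFI1B are repressors that recruit histone deacetylases and the demethylase KDM1A. GATA2 precedes GATA1 in the erythroid, megakaryocytic, mast cell and eosinophil lineages, and SPI1 directs myeloid differentiation.

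Before the members are described, the labels were set against the targeted gene, because they did not match it. Libraries are ordered here by their CD34 level and then by their RUNX1T1 level, both in CPM (read counts scaled to library size, here after TMM normalisation). CD34 was 117 to 420.2 CPM in 6 libraries and 0.107 to 0.626 CPM in the other 6. Among the 6 CD34-expressing libraries, RUNX1T1 was 296 to 329 CPM in Kasumi-1 siMM 1, SKNO-1 siMM 1 and SKNO-1 siMM 2, and 92.7 to 127 CPM in Kasumi-1 siMM 2, SKNO-1 siMM 3 and SKNO-1 siRE 1. Among the 6 libraries with CD34 near 0, it was 159 to 164 CPM in Kasumi-1 siMM 3, Kasumi-1 siRE 2 and SKNO-1 siRE 2, and 37.2 to 44.3 CPM in Kasumi-1 siRE 1, Kasumi-1 siRE 3 and SKNO-1 siRE 3. Libraries labelled Kasumi-1 and SKNO-1 therefore lay on both sides of each division. Libraries labelled siMM and siRE lay on both sides of the CD34 division. The CD34-expressing libraries with higher RUNX1T1 were all labelled siMM, and those with CD34 near 0 and lower RUNX1T1 all siRE. The other sets mixed both siRNA labels. The 4 sets of 3 libraries are used below as a reading of the data only, with ranges and with no test or mean, whereas all tests follow the labels. RUNX1T1 counts do not separate the fusion transcript from RUNX1T1 itself.

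Depth was 60559466 to 147990959 counts per library, and no pair of libraries agreed within sampling noise. The myeloid leukaemia markers PTPRC, CD33, MPO and KIT were expressed in all 12 libraries, with CD33 at 38.0 to 76.3 CPM and KIT at 96.7 to 997 CPM. The 4 T and B cell markers and the 4 erythroid markers each stayed below 1 CPM. The markers of eosinophils, mast cells and megakaryocytes differed between libraries, and their values are given after the partners of the members. With edgeR's quasi-likelihood test at an adjusted p of 0.05, no gene was called between siRE and siMM in the Kasumi-1 libraries (0% of 13608) or in the SKNO-1 libraries (0% of 13628). At an unadjusted p of 0.05, 2435 and 1455 genes passed, and DESeq2 called 1163 genes (8.55%) and 372 genes (2.73%).

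Over the 12 libraries, GATA2, GFI1B and GATA1 were highest in the 3 libraries with CD34 near 0 and lower RUNX1T1, where ERG, FLI1 and GFI1 were lowest. TAL1 and FLI1 were highest in the libraries with CD34 near 0 and higher RUNX1T1, and TAL1 was lowest in the CD34-expressing libraries with lower RUNX1T1. For LMO2, LYL1 and SPI1, no set of 3 lay outside the range of the other 9 libraries. Some of these orders depended on the scaling. On the CPM deposited by the authors, scaled to the total count, ERG was still lowest in those libraries, but FLI1 and GFI1 were not. SPI1 was then highest in the libraries with CD34 near 0 and lower RUNX1T1, and LMO2 in the CD34-expressing libraries with lower RUNX1T1. Because the RNA came from bulk cultures, fewer cells of a type and less RNA per cell cannot be told apart.

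**Figure D1:**
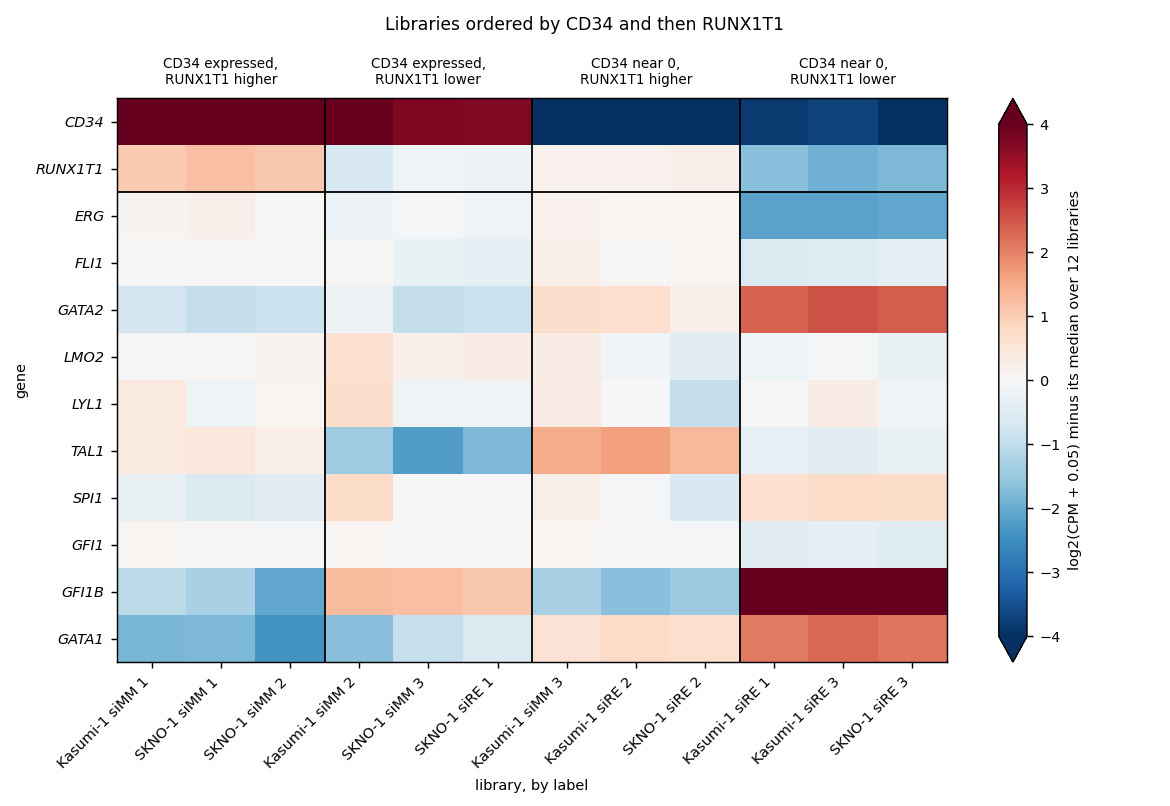
Heat map of CD34, RUNX1T1 and the 10 members (rows) in the 12 libraries (columns, named by label), as log2(CPM + 0.05) minus the median of the gene over 12 libraries, with colours saturating at 4 on either side. Columns are ordered by CD34 and then RUNX1T1. GFI1B, GATA2 and GATA1 are darkest red and ERG is blue in the last 3 columns, and TAL1 is reddest in the 3 columns before them.

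Compared per length, as FPKM, the members fell into an abundant and a scarce group. SPI1 ranked first or second of the 10 in every library (34.1 to 105 FPKM) and GFI1 between the first and the third rank (32.5 to 49.0 FPKM). LMO2, LYL1 and FLI1 lay between the second and the sixth rank. ERG was sixth or seventh, and GATA2 moved between the second and the seventh rank (6.21 to 87.3 FPKM). TAL1, GFI1B and GATA1 took the last 3 places in all 12 libraries and reached 2.19, 2.25 and 2.01 FPKM.

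GATA2 (chr3:128479427-128493185, minus strand, on GRCh38 as in all positions given here), the GATA factor of stem and early progenitor cells, spanned 11.6-fold between the lowest and the highest library. In libraries labelled Kasumi-1 it was 35.3, 51.2 and 97.8 CPM with siMM and 305, 94.3 and 351 CPM with siRE. In those labelled SKNO-1 it was 30.4, 32.4 and 30.6 CPM with siMM and 32.6, 69.0 and 316 CPM with siRE. The 3 libraries at or above 305 CPM all carried the siRE label, and the next 3, at 69.0 to 97.8 CPM, were the other libraries with CD34 near 0. The groups overlapped in Kasumi-1, by siRE 2 and siMM 3, and did not overlap in SKNO-1, where the gap between siMM 2 and siRE 1 was small beside the spread within siRE.

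The labelled comparison gave GATA2 log2 fold changes of 2.04 ± 0.60 (SE) in Kasumi-1 (edgeR adjusted p = 0.252) and 2.13 ± 0.79 in SKNO-1 (edgeR adjusted p = 0.466). DESeq2 called it in Kasumi-1 (adjusted p = 0.00731) and not in SKNO-1 (adjusted p = 0.0532). Whether edgeR called GATA2 depended on single libraries. Without Kasumi-1 siMM 3 the edgeR adjusted p was 0.0303 with a log2 fold change of 2.53, and without SKNO-1 siRE 1 it was 0.0242 with 2.58. Those fits called 4250 genes in Kasumi-1 and 2535 in SKNO-1, where the full fits called none, so the change was not particular to GATA2. Without SKNO-1 siRE 3 the log2 fold change of GATA2 was 0.73.

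GATA1 (chrX:48786554-48794311, plus strand), which succeeds GATA2 in erythroid, megakaryocytic and mast cells, was scarce throughout. Its levels were 0.108, 0.127 and 0.801 CPM in Kasumi-1 siMM and 2.36, 0.905 and 2.72 CPM in Kasumi-1 siRE. In SKNO-1 they were 0.114, 0.0577 and 0.250 CPM with siMM and 0.327, 0.841 and 2.44 CPM with siRE. The libraries with CD34 near 0 were the 6 highest, at 0.801 to 0.905 CPM with higher RUNX1T1 and 2.36 to 2.72 CPM with lower RUNX1T1. The extremes rested on 261 and 4 reads, and their ratio was 47.2 (95% interval 18.2 to 174, counting error only).

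By label, GATA1 had 92 reads in the 3 Kasumi-1 siMM libraries and 665 in the 3 Kasumi-1 siRE libraries, so it passed the minimum of 600 reads in total only through the group in which it was high. Its log2 fold change of 2.53 ± 0.91 is therefore a description, and no p is given. The value could be fitted with 4 of the 6 libraries left out in turn, and was 2.12 to 4.06, the latter without Kasumi-1 siMM 3. In the SKNO-1 libraries, with 28 and 478 reads, GATA1 did not reach the minimum. The FPKM ratio of GATA2 to GATA1 was 43.3 to 43.6 in the libraries with CD34 near 0 and lower RUNX1T1, although both genes were at their highest there, and 27.6 to 189 over all 12.

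Promoter sequences are printed for members whose levels set libraries apart, and the windows shown were chosen because they hold recognition letters of the other members. RefSeq promoter windows, on GRCh38.p14, were given for 7 of the 10 members with 15 annotated starts, FLI1, LMO2 and SPI1 having no entry, and the 250 bases before each start were searched on both strands. The motifs were AGATAA and TGATAA for GATA factors, CGGAAG and AGGAAG for ETS factors, CAGATG and CAGCTG as E-boxes of TAL1 and LYL1, TGTGGT and TGCGGT for RUNX1, and AAATCA for GFI1 and GFI1B. Over 35116 windows of all genes, 14.6% held a GATA motif, 40.8% an ETS motif, 24.3% one of these E-boxes, 16.3% a RUNX motif and 11.6% the GFI1 motif. Of the 15 member windows, 5 held a GATA motif (33.3%), 8 an ETS motif (53.3%), 4 an E-box (26.7%), 2 a RUNX motif (13.3%) and 2 the GFI1 motif (13.3%). Some of these windows belong to 1 gene and overlap. The windows before GATA2 start 1, ERG starts 1 and 2 and GFI1 start 1 held none. A match describes the letters and not a bound site.

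The first 2 sequences belong to the GATA genes, each written 5′ to 3′ along the gene with matches in capitals. The GATA2 window (chr3:128488531-128488780, minus strand) lies before the second of its starts, within the gene, and holds the E-box CAGCTG. The GATA1 stretch (chrX:48786340-48786553, plus strand) ends at the first base before the annotated exon and holds the ETS motif AGGAAG near its downstream end.
GATA2: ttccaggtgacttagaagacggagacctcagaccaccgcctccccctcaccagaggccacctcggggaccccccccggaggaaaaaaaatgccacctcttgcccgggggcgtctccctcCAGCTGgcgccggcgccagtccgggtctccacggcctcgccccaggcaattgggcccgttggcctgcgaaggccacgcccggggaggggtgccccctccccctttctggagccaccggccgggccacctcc
GATA1: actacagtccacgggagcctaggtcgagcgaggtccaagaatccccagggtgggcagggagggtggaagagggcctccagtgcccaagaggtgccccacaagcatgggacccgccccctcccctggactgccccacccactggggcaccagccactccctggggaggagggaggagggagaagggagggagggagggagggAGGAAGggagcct

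GFI1B (chr9:132944000-132991687, plus strand), the repressor of erythroid and megakaryocytic progenitors, had the widest range of the members. It was 0.108, 0.751 and 0.0865 CPM in Kasumi-1 siMM and 11.5, 0.0537 and 12.3 CPM in Kasumi-1 siRE. In SKNO-1 it was 0.0855, 0.0289 and 0.718 CPM with siMM and 0.653, 0.0718 and 11.1 CPM with siRE. The libraries with lower RUNX1T1 held the 6 highest values, at 0.653 to 0.751 CPM where CD34 was expressed and 11.1 to 12.3 CPM where it was near 0, and all libraries with higher RUNX1T1 were at or below 0.108 CPM. The extremes were 1175 and 2 reads, a ratio of 425 (95% interval 117 to 3510.25, counting error only).

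By label, GFI1B had 75 reads in Kasumi-1 siMM against 2582 in siRE, and 54 in SKNO-1 siMM against 1748 in siRE, of which 1697 were in siRE 3. It too passed the minimum of 600 reads only through siRE, so its log2 fold changes, 4.65 ± 1.88 for Kasumi-1 and 3.78 ± 1.94 for SKNO-1, are descriptions, and no p is given. They were 4.197 to 6.35 with 1 Kasumi-1 library left out, the latter without siMM 2, and 3.22 to 6.03 with 1 SKNO-1 library left out, the latter without siMM 3. Without SKNO-1 siRE 3 the gene could not be fitted. The groups overlapped in both lines. GFI1B shares 349 exonic bases, 5.72% of its exons, with TSC1 on the opposite strand, which reached 51.9 CPM. How strand was handled is not given in the sources used here, so reads of both genes cannot be told apart there.

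GFI1 (chr1:92473043-92486925, minus strand), the related repressor of myeloid and stem cells, was abundant and varied least on TMM-normalised CPM, by 1.49-fold. On the deposited CPM it ran from 165 to 249, and FLI1, at 135 to 198, had the smaller fold range. The levels of GFI1 were 237, 234 and 237 CPM in Kasumi-1 siMM against 166, 227 and 175 CPM in Kasumi-1 siRE. They were 225, 217 and 224 CPM in SKNO-1 siMM against 225, 211 and 159 CPM in SKNO-1 siRE. Values of 159 to 175 CPM were confined to the 3 libraries with CD34 near 0 and lower RUNX1T1, and the other 9 lay between 211 and 237 CPM. This separation depended on the TMM factors. On the deposited CPM those 3 libraries were at 165 to 198, and SKNO-1 siMM 2, at 185, lay among them. The Kasumi-1 groups did not overlap, at a log2 fold change of −0.31 ± 0.15 (edgeR adjusted p = 0.330), and the SKNO-1 groups did, at −0.16 ± 0.19 (edgeR adjusted p = 0.785). On the deposited CPM the Kasumi-1 groups overlapped too, with siRE 2 at 249 above siMM 1 at 225 and siRE 3 at 194 below siMM 2 at 200.

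The FPKM ratio of GFI1 to GFI1B described both genes together. It was 17.2 to 17.3 in the 3 libraries with CD34 near 0 and lower RUNX1T1, 375 to 415 in the CD34-expressing libraries with lower RUNX1T1, and 2633 to 9055 in the 6 libraries with higher RUNX1T1. The window before the second listed GFI1B start (plus strand) holds TGATAA (30 bases around it, chr9:132978566-132978595) and AAATCA, the motif of its own family (30 bases, chr9:132978651-132978680), both within annotated exon sequence of the gene. The GFI1 window (chr1:92486100-92486349, minus strand) holds AGGAAG and, nearer to the start, TGTGGT for RUNX1 followed by CGGAAG.
GFI1B, GATA motif: cctggaaagtttTGATAAgcaaatacggct
GFI1B, GFI1 motif: taatcagattgaAAATCAgggaggggaaca
GFI1: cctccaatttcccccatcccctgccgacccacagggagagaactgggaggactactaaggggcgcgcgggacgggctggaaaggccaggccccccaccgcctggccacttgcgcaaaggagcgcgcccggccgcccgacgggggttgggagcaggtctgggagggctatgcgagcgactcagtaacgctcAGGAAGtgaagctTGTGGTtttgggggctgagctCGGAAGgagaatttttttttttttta

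**Figure D2:**
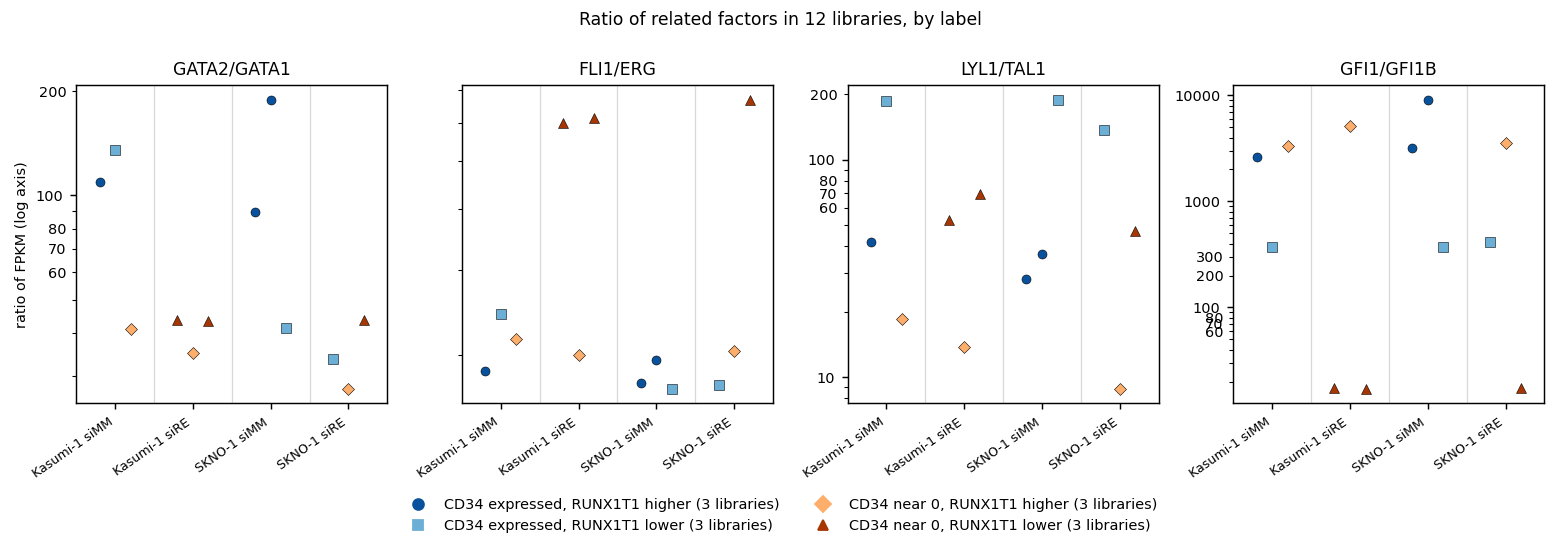
Ratio of FPKM of 4 pairs of related members (log axes) in each of the 12 libraries, placed by label, with replicates 1 to 3 from left to right and symbols for the 4 sets by CD34 and RUNX1T1. GFI1/GFI1B is 17.2 to 17.3 and FLI1/ERG 6.00 to 6.69 in the triangles, and LYL1/TAL1 is 136 to 188 in the squares.

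TAL1 (chr1:47216290-47232220, minus strand), the helix-loop-helix partner of LMO2, spanned 15.6-fold and separated the 4 sets of libraries without overlap. It was 4.82, 1.34 and 10.3 CPM in Kasumi-1 siMM and 2.88, 11.4 and 2.71 CPM in Kasumi-1 siRE. In SKNO-1 it was 4.89, 4.44 and 0.734 CPM with siMM and 1.02, 9.01 and 3.02 CPM with siRE. In order, it was 9.01 to 11.4 CPM with CD34 near 0 and higher RUNX1T1, 4.44 to 4.89 CPM with CD34 and higher RUNX1T1, 2.71 to 3.02 CPM with CD34 near 0 and lower RUNX1T1, and 0.734 to 1.34 CPM with CD34 and lower RUNX1T1. At either level of CD34 the libraries with lower RUNX1T1 were thus the lower ones, whereas by label the groups overlapped almost entirely.

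The labelled log2 fold changes of TAL1 were 0.065 ± 0.88 in Kasumi-1 (edgeR adjusted p = 0.971) and 0.38 ± 0.94 in SKNO-1 (edgeR adjusted p = 0.911), and both changed sign when single libraries were left out. They ran from −0.95 without Kasumi-1 siRE 2 to 0.88 without Kasumi-1 siMM 3, and from −0.74 without SKNO-1 siRE 2 to 0.84 without SKNO-1 siRE 1. TAL1 shares 845 exonic bases with an antisense RNA, AL135960.1, which reached 0.205 CPM. The TAL1 window before its second start (chr1:47231716-47231965, minus strand) held 4 RUNX motifs, which are 3 copies of TGTGGT and 1 of TGCGGT, and 2 overlapping reverse matches of AGGAAG at its far end, printed as CTTCCTTCCT.
TAL1: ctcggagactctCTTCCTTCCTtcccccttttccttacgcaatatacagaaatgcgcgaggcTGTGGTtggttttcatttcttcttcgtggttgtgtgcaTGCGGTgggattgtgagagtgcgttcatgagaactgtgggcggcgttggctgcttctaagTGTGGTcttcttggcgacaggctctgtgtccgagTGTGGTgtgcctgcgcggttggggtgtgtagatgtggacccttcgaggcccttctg

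LYL1 (chr19:13099033-13103161, minus strand), the helix-loop-helix relative of TAL1, was more abundant and had no set of 3 libraries outside the range of the others. It was 110.1, 136 and 105 CPM in Kasumi-1 siMM and 82.8, 85.8 and 103 CPM in Kasumi-1 siRE. In SKNO-1 it was 75.5, 89.3 and 75.6 CPM with siMM and 76.4, 43.7 and 78.0 CPM with siRE. The Kasumi-1 groups did not overlap by a narrow gap between siMM 3 and siRE 3. On the deposited CPM they overlapped, with siMM 3 at 97.9 and siRE 3 at 115. The log2 fold changes were −0.36 ± 0.16 in Kasumi-1 (edgeR adjusted p = 0.296) and −0.28 ± 0.26 in SKNO-1 (edgeR adjusted p = 0.706). LYL1 per TAL1, in FPKM, ran from 8.86 to 18.6 where TAL1 was highest to 136 to 188 where it was lowest.

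LMO2 (chr11:33858576-33892076, minus strand), the adaptor that joins TAL1 or LYL1 to GATA factors, varied 2.11-fold. Its levels were 90.7, 149 and 117 CPM in Kasumi-1 siMM and 83.9, 87.0 and 92.2 CPM in Kasumi-1 siRE. They were 97.5, 105 and 109.6 CPM in SKNO-1 siMM and 116, 70.7 and 77.8 CPM in SKNO-1 siRE. Groups overlapped in both lines, with log2 fold changes of −0.43 ± 0.19 (edgeR adjusted p = 0.304) and −0.24 ± 0.23 (edgeR adjusted p = 0.730). The CD34-expressing libraries with lower RUNX1T1 were among the highest, at 109.6 to 149 CPM, and overlapped the range of 70.7 to 117 CPM with CD34 near 0 and higher RUNX1T1. On the deposited CPM they were at 116 to 127, above Kasumi-1 siMM 3, the highest of the others, at 109.

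ERG (chr21:38380027-38661780, minus strand), an ETS factor of stem cells, was low in 3 libraries and similar in the other 9. It was 89.3, 69.7 and 92.6 CPM in Kasumi-1 siMM and 18.3, 85.6 and 18.7 CPM in Kasumi-1 siRE. In SKNO-1 it was 95.0, 84.0 and 79.9 CPM with siMM and 74.6, 86.0 and 19.3 CPM with siRE. All 3 libraries at 18.3 to 19.3 CPM were labelled siRE and had CD34 near 0 and lower RUNX1T1, and no other library was below 69.7 CPM. By label the groups overlapped and the log2 fold changes were −1.03 ± 0.65 in Kasumi-1 (edgeR adjusted p = 0.414) and −0.51 ± 0.51 in SKNO-1 (edgeR adjusted p = 0.732). Leaving out Kasumi-1 siRE 2, the library of that group at 85.6 CPM, moved the first to −2.17, and leaving out SKNO-1 siRE 3 moved the second to −0.071.

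FLI1 (chr11:128686535-128813267, plus strand), the closest relative of ERG, varied 1.81-fold. It was 175, 179 and 211 CPM in Kasumi-1 siMM and 117, 181 and 122 CPM in Kasumi-1 siRE. In SKNO-1 it was 176, 174 and 144 CPM with siMM and 137, 186 and 137 CPM with siRE. The lowest 3 values belonged to the libraries in which ERG was lowest, but SKNO-1 siRE 1 was within 1 CPM of them. On the deposited CPM SKNO-1 siRE 1, at 142.01, was below SKNO-1 siRE 3, at 142.09. The libraries with CD34 near 0 and higher RUNX1T1 were the highest, at 181 to 211 CPM. The log2 fold changes were −0.42 ± 0.20 in Kasumi-1 (edgeR adjusted p = 0.325) and −0.10 ± 0.19 in SKNO-1 (edgeR adjusted p = 0.874). The FPKM ratio of FLI1 to ERG was 6.00 to 6.69 in those 3 libraries and 1.71 to 2.43 in the other 9. The ERG window shown (chr21:38498505-38498754, minus strand) lies before the third of its starts and holds reverse matches of the E-box CAGATG (printed as CATCTG), of the GATA motif AGATAA (printed as TTATCT) and of the ETS motif AGGAAG (printed as CTTCCT).
ERG: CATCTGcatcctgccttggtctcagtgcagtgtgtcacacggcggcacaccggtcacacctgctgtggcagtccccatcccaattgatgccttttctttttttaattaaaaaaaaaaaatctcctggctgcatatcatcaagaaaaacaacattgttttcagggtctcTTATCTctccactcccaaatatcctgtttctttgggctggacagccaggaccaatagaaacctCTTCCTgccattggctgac

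SPI1 (chr11:47354860-47378576, minus strand), the ETS factor of myeloid differentiation, varied 2.59-fold. Its levels were 92.4, 189 and 135 CPM in Kasumi-1 siMM and 181, 112 and 196 CPM in Kasumi-1 siRE. They were 76.2, 82.7 and 114 CPM in SKNO-1 siMM and 114, 75.7 and 189 CPM in SKNO-1 siRE. Libraries with CD34 near 0 and lower RUNX1T1 were at 181 to 196 CPM, a range that Kasumi-1 siMM 2 also entered. On the deposited CPM Kasumi-1 siMM 2 was below them, at 161 against 196 to 218. The log2 fold changes were 0.24 ± 0.32 in Kasumi-1 (edgeR adjusted p = 0.693) and 0.46 ± 0.35 in SKNO-1 (edgeR adjusted p = 0.641). With 1 library left out they ran from 0.015 without Kasumi-1 siMM 1 to 0.53 without Kasumi-1 siMM 2, and from 0.091 without SKNO-1 siRE 3 to 0.71 without SKNO-1 siRE 2. SPI1 exceeded GATA2 in every library in FPKM, by 1.21 to 1.29 in the 3 libraries where GATA2 was highest and by up to 8.05 in the CD34-expressing libraries with lower RUNX1T1.

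**Figure D3:**
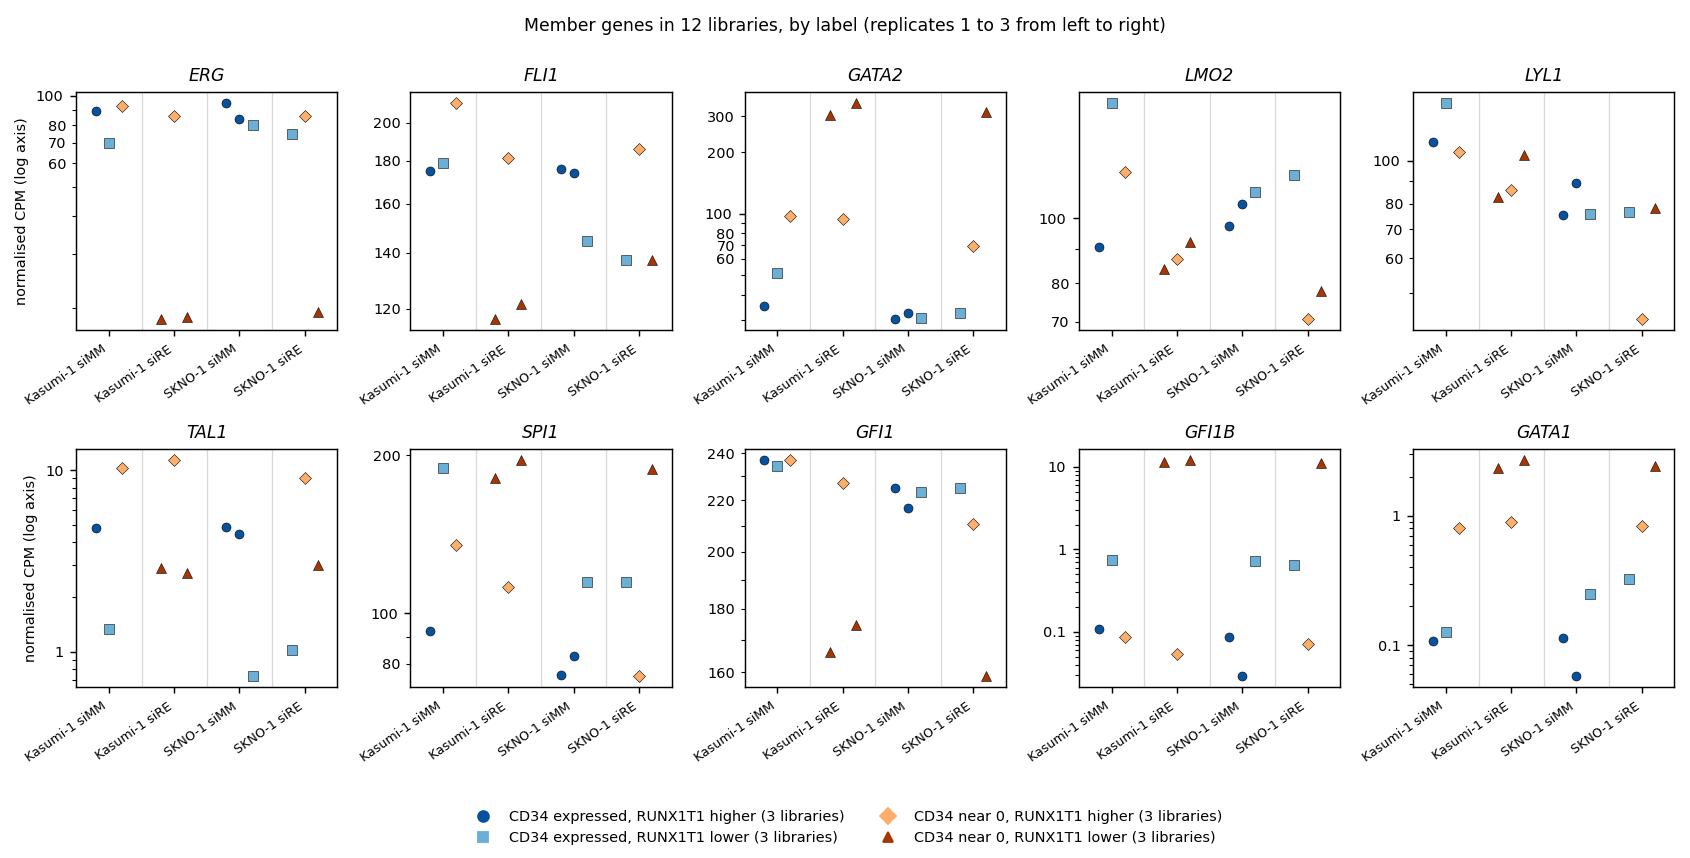
TMM-normalised CPM (log axes, each with its own range) of the 10 members in the 12 libraries, grouped by label with replicates 1 to 3 from left to right. Symbols give the 4 sets by CD34 and RUNX1T1. ERG is at 18.3 to 19.3 CPM and GFI1B at 11.1 to 12.3 CPM in the triangles, which occur under both siRE labels next to a diamond or a square of another level.

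The counts of members in the labelled comparisons are given beside those of all genes tested. They leave out GFI1B, and in Kasumi-1 GATA1, which reached the minimum of reads only through the group in which they were high, and GATA1 in SKNO-1, which did not reach it. Of the other 8 members in Kasumi-1, 2 had groups that did not overlap, LYL1 and GFI1 lower in siRE, beside 21.6% of all genes tested. Both overlapped on the deposited CPM, whereas the share of all genes was counted on TMM-normalised CPM only. Of the other 8 in SKNO-1, GATA2 alone did not overlap, higher in siRE, beside 12.1% of all genes. Their median log2 fold change was −0.34 in Kasumi-1 (all genes 0.020), and in SKNO-1 it was −0.13 (all genes 0.027). DESeq2 called 1 of these 8 in Kasumi-1, GATA2, and 0 of 8 in SKNO-1, beside the 8.55% and 2.73% given above.

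**Figure D4:**
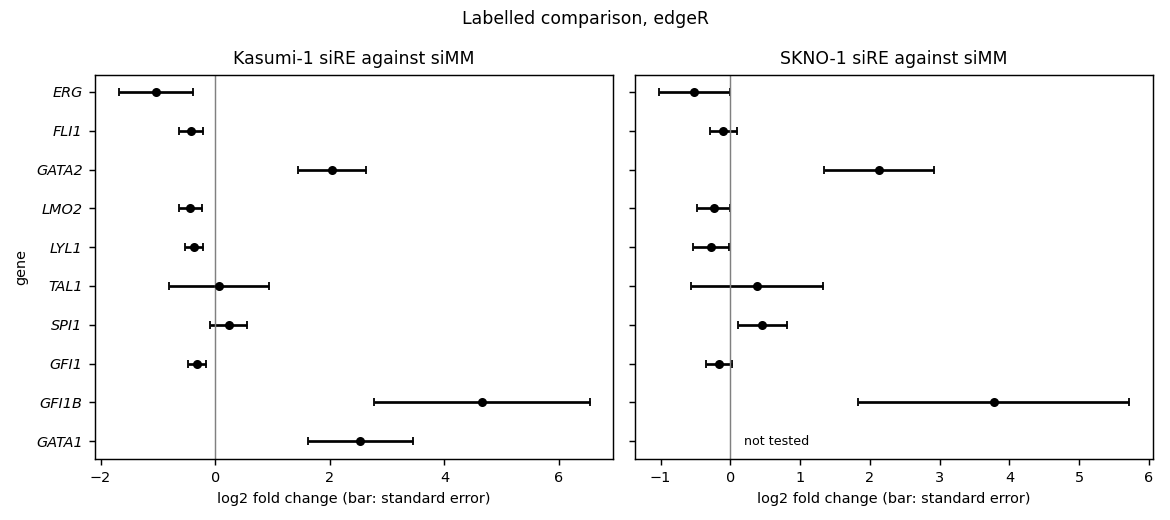
Log2 fold change of siRE against siMM (points, with bars of 1 standard error from edgeR) for the 10 members in the libraries labelled Kasumi-1 (left) and SKNO-1 (right). GATA2 lies at 2.04 and 2.13 and GFI1B at 4.65 and 3.78 with the widest bars. GFI1B, and GATA1 in Kasumi-1, passed the filter only through siRE, and GATA1 was not tested in SKNO-1.

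The difference of the siRNA effect between lines and the difference between the lines themselves were tested over all 12 libraries. For the interaction, edgeR called 0% of 15863 genes, with 106 genes at an unadjusted p of 0.05, and DESeq2 called 127 (0.801%). No member was among them, and the difference in log2 fold change was 0.13 ± 1.06 for GATA2, −0.83 ± 2.64 for GFI1B and 0.51 ± 0.89 for ERG. GFI1B and GATA1 passed the minimum of reads only through siRE here too, so their values in this fit are descriptions. For SKNO-1 against Kasumi-1, edgeR called 0%, with 2050 genes at an unadjusted p of 0.05, DESeq2 called 272 (1.71%), and in 0.687% the labelled lines did not overlap. Among the members, LYL1 had the smallest p, with a log2 fold change of −0.50 ± 0.15 (edgeR adjusted p = 0.299), and all 10 overlapped between lines. A p above the threshold does not show that the lines were alike.

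The partners of the members were followed in lists. edgeR called none of them in either line. Of the 7 LMO2/TAL1 complex partners, RUNX1, whose counts include the first exons of the fusion, was 382 to 410 CPM where CD34 was expressed and RUNX1T1 higher and 294 to 316 CPM where RUNX1T1 was lower, and 248 to 273 and 141 to 156 CPM in the corresponding libraries with CD34 near 0. TCF12, the E-protein partner of TAL1, was 149.6 to 179 CPM with CD34 and 283 to 380.03 CPM without. SSBP2, which stabilises LDB1 complexes, was 53.5 to 69.5 CPM in the libraries where TAL1 was highest and 11.0 to 25.6 CPM in the others. The 7 had a median log2 fold change of −0.52 in Kasumi-1 against 0.020 for all genes, and −0.50 in SKNO-1 against 0.027. DESeq2 called 0 of 7 in either line. These medians include RUNX1 itself (−0.77 and −0.67), whose counts hold part of the siRNA target. Of the others, LDB1, TCF3 and SSBP3 were below 0 and TCF12, SSBP2 and CBFA2T3 above 0 in both lines.

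Among the 4 corepressors of GFI1 and GFI1B, DESeq2 called HDAC2 lower in Kasumi-1 siRE (log2 fold change −0.56 ± 0.17 and adjusted p = 0.252 in edgeR, adjusted p = 0.0332 in DESeq2), and KDM1A was 213 to 402 CPM over the 12 libraries. Of the 4 GATA and erythroid partners, DESeq2 called 0. NFE2, a subunit of a megakaryocytic and erythroid activator, was 1.73 to 2.11 CPM in the CD34-expressing libraries with higher RUNX1T1, 15.4 to 25.2 CPM in the next 6 and 62.6 to 70.7 CPM in the libraries where GATA2 was highest. ZFPM1, the cofactor of GATA1, was 10.1 to 12.4 CPM in the latter and 1.05 to 9.63 CPM in the others, whereas EPOR, the erythropoietin receptor, was 3.44 to 6.599 CPM throughout.

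Of the 8 ETS and stem cell factors, 4 were tested, and ETS1, MEIS1, MECOM and HLF did not reach 600 reads in total in the libraries of either line. IKZF1, a lymphoid and myeloid regulator, was 104 to 113 CPM in the CD34-expressing libraries with higher RUNX1T1 and 250.05 to 283 CPM in the libraries with CD34 near 0 and lower RUNX1T1, and DESeq2 called it higher in Kasumi-1 siRE (log2 fold change 0.70 ± 0.22 and adjusted p = 0.252 in edgeR, adjusted p = 0.0485 in DESeq2). Among the 7 SPI1 partners and receptor targets, DESeq2 called CSF1R and CSF3R lower in Kasumi-1 siRE, beside 8.55% of all genes called in either direction. IRF8 is left out of these calls, because it passed the minimum of reads only through siMM. None was called in SKNO-1, beside 2.73%. With IRF8 and both entries of CSF2RA, the list had a median log2 fold change of −1.18 in Kasumi-1 (all genes 0.020) and −0.37 in SKNO-1 (all genes 0.027). IRF8, which pairs with SPI1, had no read in the 6 libraries with CD34 near 0 and was 4.16 to 15.4 CPM in the other 6. It thus had no read in Kasumi-1 siRE and passed the minimum of reads there only through siMM. Its DESeq2 calls, in Kasumi-1 and for the difference between lines, are therefore descriptions, and no p is given. CSF3R, the G-CSF receptor, was 421 to 639 CPM with CD34, 218 to 267 CPM with CD34 near 0 and higher RUNX1T1, and 60.2 to 65.9 CPM with lower RUNX1T1. KIT, the stem cell factor receptor, ran in the same order, from 679.6 to 997 CPM through 463 to 515 CPM to 96.7 to 126 CPM. CSF2RA, the GM-CSF receptor subunit, ran the opposite way, at 5.07 to 11.0 CPM with CD34, 15.2 to 18.8 CPM with CD34 near 0 and higher RUNX1T1, and 26.6 to 29.1 CPM with lower RUNX1T1. ITGAM, an integrin of mature myeloid cells, was higher with lower RUNX1T1 at either level of CD34, at 2.58 to 2.99 against 0.231 to 0.596 CPM with CD34 and 3.17 to 3.73 against 0.844 to 1.05 CPM without. CEBPA, a myeloid regulator, was 1.498 to 7.14 CPM in the 12 libraries.

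**Figure D5:**
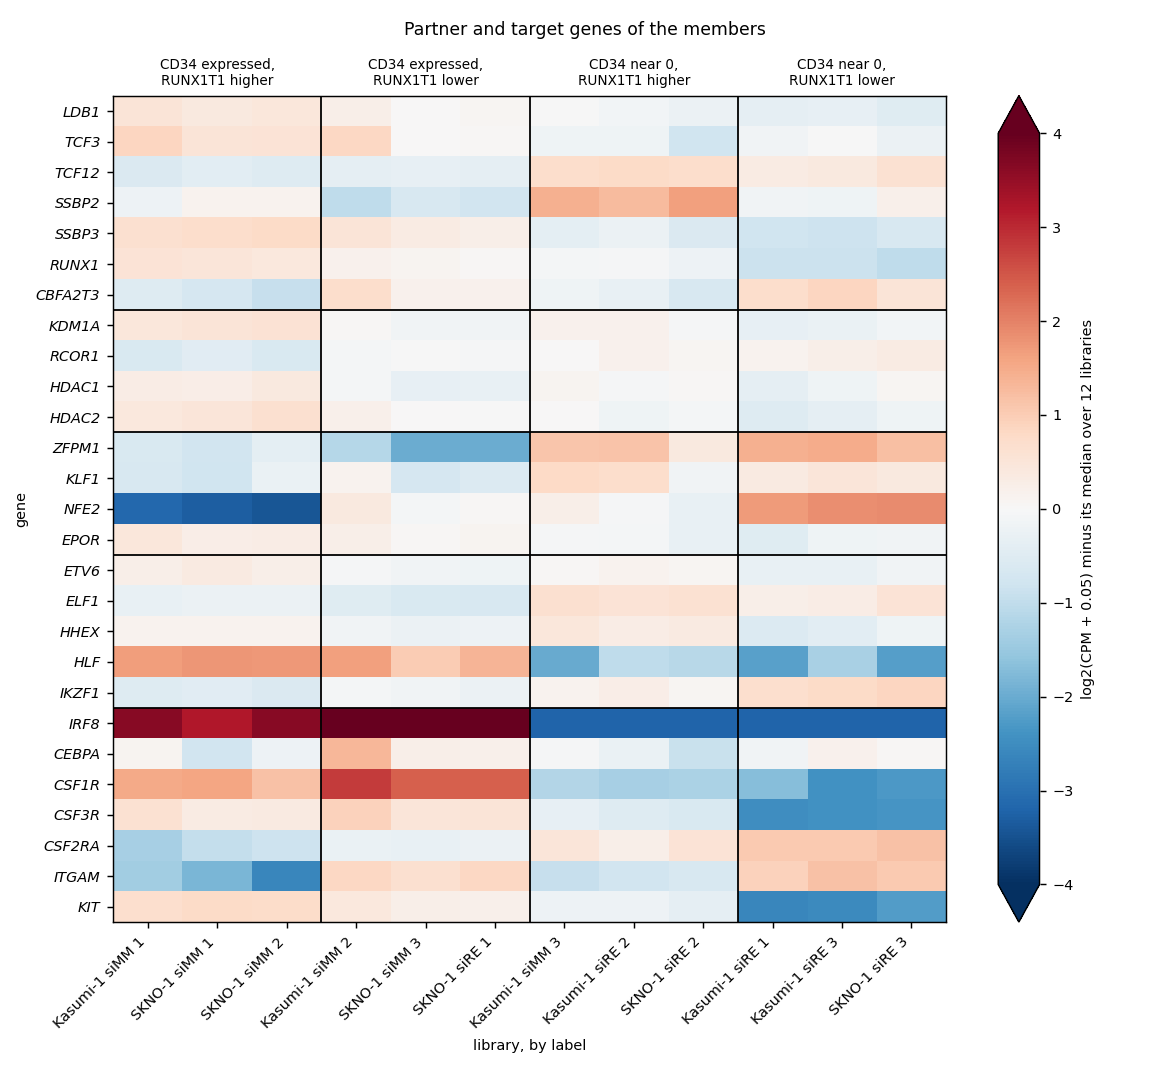
Heat map of the partner and target genes that reached 1 CPM in any library (rows, with lines between the 5 lists) in the 12 libraries (columns, named by label and ordered by CD34 and then RUNX1T1), as log2(CPM + 0.05) minus the median of the gene over 12 libraries. NFE2 and ZFPM1 are red and KIT, CSF3R and CSF1R blue in the last 3 columns, and IRF8 is blue in the last 6.

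Markers of other lineages differed between the 4 sets of libraries, and not all in the order of the GATA factors. The summed level of the 4 mast cell markers was 2.10 to 2.78 CPM in the CD34-expressing libraries with higher RUNX1T1, 8.23 to 9.03 CPM in those with lower RUNX1T1, 15.96 to 23.6 CPM with CD34 near 0 and higher RUNX1T1, and 131 to 146 CPM in the 3 libraries where GATA2, GFI1B and GATA1 were highest. CPA3, a mast cell protease, made up most of the last, at 120.3 to 134 CPM, while MS4A2, a subunit of the IgE receptor of mast cells, stayed at or below 0.375 CPM. The 4 eosinophil markers summed to 0.456 to 0.501, 156 to 194, 48.3 to 65.2 and 193 to 239 CPM in the same order. This is not the order of GATA2, which was 30.6 to 51.2 CPM in the second of these sets and 69.0 to 97.8 CPM in the third. The 4 eosinophil genes also differed among themselves. PRG2 was highest in the CD34-expressing libraries with lower RUNX1T1 (156 to 193 CPM, against 74.2 to 88.8 CPM where GATA2 was highest) and EPX with CD34 near 0 and higher RUNX1T1 (2.62 to 3.31 CPM), whereas CLC (64.1 to 80.7 CPM) and IL5RA (53.3 to 67.9 CPM) were highest where GATA2 was. Of the 4 megakaryocyte markers only ITGA2B reached 1 CPM, at 1.47 to 2.37 CPM with CD34 and 53.1 to 90.6 CPM without, and PF4 had no read in any library. The erythroid markers summed to 0.101 to 0.242, 0.280 to 0.515, 0.314 to 0.831 and 0.115 to 0.202 CPM in the order of the sets, so they were not highest where GATA1 was. The monocyte markers were lower with CD34 near 0, at 9.97 to 14.0 CPM against 31.7 to 42.6 CPM, with CD14 at or below 0.0445 CPM, and the T and B cell markers summed to 0.0195 to 0.770 CPM. Whether cells of these lineages had a part in the levels of the members was not tested.

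The genes whose log2 CPM followed each member most closely over the 12 libraries were sought among 7614 genes averaging at least 16 CPM. These correlations are descriptions over libraries that fall into 4 sets of 3 and share their depth and their labels with one another. ERG was followed by SORL1 (Pearson r = 0.99), a sorting receptor, at 136 to 779 CPM. GATA2 was followed by KLF13 and RELB (both r = 0.99) and GATA1 by TBRG1 (r = 0.99), which ranged from 11.1 to 34.8 CPM. TAL1 was followed by FAM171A1 and by DEPTOR, an inhibitor of mTOR (both r = 0.98), and DEPTOR ranged from 15.9 to 130.4 CPM. GFI1B was followed by MAFG (r = 0.97), which pairs with NFE2. FLI1 was followed by APP (r = 0.98), SPI1 by EFHD2 (r = 0.97), GFI1 by MAP4K1 (r = 0.97) and LYL1 by CHCHD10 (r = 0.96). LMO2 had the least similar neighbour, IRX3 (r = 0.93). Among the members themselves, ERG and GFI1 were the closest pair (r = 0.95), followed by GATA2 and GATA1 (r = 0.92). ERG and GFI1B ran opposite to each other (r = −0.93). All these correlations used TMM-normalised CPM. They were not computed on the deposited CPM, where the libraries with low ERG were not the lowest for GFI1, so this order may depend on the scaling.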

How the data were processed

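RNA-seq of Kasumi-1 and SKNO-1 cells, 12 in vitro libraries grouped by their labels, was analysed from the deposited tables. The authors trimmed reads with Trim Galore 0.6.5, aligned them to GRCh38 with STAR 2.7.10a and counted exonic reads per gene with Subread 1.6.5, while the file headers name Rsubread 1.32.4 under R 3.5.1. The deposited columns used were raw read counts per gene and FPKM. The CPM deposited by the authors, scaled to the total count, served as an alternative scaling. Strand setting and treatment of shared reads are not given in the sources used here.

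Counts were tested with edgeR 4.0.16 (R 4.3.3), with TMM factors, quasi-likelihood fits and Benjamini-Hochberg adjustment at 0.05, over genes with at least 600 reads in total in the libraries of a fit, the minimum of the study. A member for which 2 times the reads of its lower group stayed under this minimum was described and not tested. The alternatives were DESeq2 1.42.0, size factors in edgeR, no filter beyond 1 read, all 12 libraries in one fit, replicate blocks and each library left out. Printed CPM are TMM-normalised. On simulated data for the Kasumi-1 and SKNO-1 comparisons, at a dispersion of 0.02, all 200 changed genes were recovered, with 10 and 12 false calls. For the difference between lines, 178 of 200 were recovered. The real common dispersions of the Kasumi-1 and SKNO-1 comparisons were 0.197 and 0.246. The simulation therefore does not show what edgeR could recover in the real data.

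The members and lists were chosen with earlier results of these data known. Named genes are the 10 members, CD34, RUNX1T1, 5 partner lists, 7 marker lists and, for each member, the most correlated genes of at least 16 CPM on average. Ratios of the highest to the lowest library for GFI1B and GATA1 have exact binomial 95% intervals. Promoter windows are from RefSeq on GRCh38.p14. The tables of cells from mice were not used here, because no count was found by gene identifier for any of the 10 members in their 4 libraries, nor for ACTB. A missing identifier and a gene without reads were not told apart.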

Additional observations from a re-analysis of the deposited data

How the results depend on the processing

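Where edgeR called 0 genes, DESeq2 called 1163 (Kasumi-1), 372 (SKNO-1), 127 (siRNA effect between lines) and 272 (SKNO-1 against Kasumi-1), and the cause was not tested. With 1 library left out, edgeR called 0 to 4250 genes in Kasumi-1 (above 0 only without siMM 3), 0 to 2535 in SKNO-1 (only without siRE 1), 0 to 0 for the difference between lines and 0 to 70 between lines (only without SKNO-1 siRE 3). Size factors, the filter and the fit over 12 libraries left these counts at 0.

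Same-numbered siMM and siRE libraries had correlations of deviations from their labelled group means of −0.272 to −0.0132 in Kasumi-1 and −0.246 to −0.0213 in SKNO-1. Because the labelled groups mix the sets by CD34 and RUNX1T1, this check could not show whether same-numbered libraries were paired. With the replicate block, 0 genes were called in each comparison. The block turned the sign of the log2 fold change of TAL1 in Kasumi-1 (−0.058) and of the difference between lines for GATA2 (−0.47) and GATA1 (−0.066), none of them past the threshold.

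Of 351 member values with 1 library left out, 318 kept sign and side of the threshold, 3 passed it and 30 changed sign, all 30 past no threshold. They include values of GFI1B and GATA1, which are descriptions where these genes passed the filter only through siRE. The values that changed sign ranged in Kasumi-1 from −0.95 to 0.88 for TAL1. In SKNO-1 they ranged from −0.74 to 0.84 for TAL1, −0.26 to 0.0043 for FLI1 and −0.29 to 0.0065 for GFI1. For the difference between lines the ranges were −1.32 to 0.59 for GATA2, −0.996 to 1.27 for GATA1, −4.28 to 1.41 for GFI1B, −0.78 to 1.35 for TAL1, −0.17 to 0.49 for SPI1, −0.047 to 0.31 for LYL1 and −0.059 to 0.36 for LMO2. Between lines they were −0.12 to 0.056 for FLI1, −0.062 to 0.050 for GFI1 and −0.21 to 0.0093 for LMO2. The highest over the lowest library moved by less than 1.5 times in 20 of 20 values under other CPM scalings. These values do not cover the order of the libraries, which changed with the scaling for some members. Levels of GATA1 and GFI1B below 1 CPM rest on few reads and are limited by depth.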
